A study of Mus musculus with 12 samples.

Results

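The genes of the cytosolic ribosomal proteins were examined in 12 RNA-seq libraries of U2OS cells, an established human osteosarcoma cell line. Members were the protein-coding genes whose full name in the deposited table begins with ribosomal protein, including the subunits of the lateral stalk and leaving out names with "kinase" or "like". This rule took 80 of the 58735 genes in the table: 46 genes of the large subunit, 33 of the small subunit and RPS19BP1, which encodes a protein that binds RPS19 and is not a subunit. Of these, 78 had a mean level of at least 0.5 FPKM (a fragment count corrected for gene length and sequencing depth) over the libraries and were tested, namely all 46 of the large subunit, 31 of the small subunit and RPS19BP1. RPS4Y1 and RPS4Y2 were below this level. The labels give the organism as mouse and the build as GRCm38, whereas the genes carry human Ensembl identifiers, so the samples were read as human and the coordinates are printed as the table gives them, with a human build not given in the sources used here. FAU, which encodes a ribosomal protein fused to a protein like ubiquitin, and RACK1 carry other names and were described with the other genes of translation.

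There were 4 groups of 3 libraries. The first group is labelled blank, with no treatment named, the siSRSF1-2 and siSRSF1-3 groups each received the siRNA of that name, and the OE-LINC01134 group overexpressed LINC01134, a long non-coding RNA. Both siRNAs target SRSF1, a splicing factor, and the comparisons asked which genes differ when SRSF1 is depleted or LINC01134 is overexpressed. No library with a control siRNA or an empty vector was used here, so the effect of transfection cannot be told apart from that of the siRNA or of the overexpressed RNA. The study's methods describe siRNA transfection for HOS, another osteosarcoma line, and the dose and time for the U2OS libraries are not given in the sources used here. The supplementary methods speak of biological replicates, though of fewer per condition than the 3 libraries here. A figure legend of the study speaks of 3 experimental repeats. The sources do not say whether these libraries came from separate cultures, so the p-values measure only the spread between these libraries. The mesenchymal genes VIM (68.7 to 248 FPKM over the libraries), COL1A1, SPARC and RUNX2 (1.55 to 3.92) were expressed in every library. COL1A2 was at most 0.0131 FPKM. Of the markers of other cells, CD3E was at 0, PTPRC was at most 0.0559 FPKM, VWF at most 0.134 and PECAM1 at most 0.368. The epithelial CDH1 was at 0.345 to 0.862 FPKM and EPCAM at 0.918 to 2.43 FPKM, a range that overlaps that of RUNX2.

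A ribosome joins a small subunit, which reads the mRNA, with a large subunit, which forms the peptide bond, and each subunit carries its own set of proteins. The mRNAs of these proteins are among the most abundant in dividing cells, and most begin with a run of pyrimidines that places their translation under the control of mTOR. Several ribosomal proteins, RPL5 and RPL11 among them, also bind MDM2 when ribosome assembly is disturbed, which stabilizes p53.

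The reads assigned to genes numbered 26237763 to 32954539 in each library. In the siSRSF1-2 group all 3 libraries were nearly alike, and so were blank replicates 2 and 3 and OE-LINC01134 replicates 1 and 3: the chi-square per gene between their reads was 2.08 to 3.00, against 55.5 to 278 for the other pairs within groups. These pairs still differed by more than sampling noise and were kept as separate libraries. Relative to its reads on genes, the size by which each library had been scaled was 0.712 in siSRSF1-3 replicate 1, 0.888 in siSRSF1-3 replicate 2 and 0.990 to 1.09 elsewhere, so the deposited values of those libraries were scaled up relative to the rest.

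SRSF1 (ENSG00000136450, chromosome 17, 58003360 to 58007346) was at 35.9, 19.8 and 20.5 FPKM in the blank libraries. It was at 7.09, 7.46 and 7.41 FPKM with siSRSF1-2 and at 3.33, 6.81 and 7.90 FPKM with siSRSF1-3, below every blank library. Its log2 fold change was -1.72 ± 0.232 (standard error; limma adjusted p = 0.00500) with siSRSF1-2 and -2.09 ± 0.385 (limma adjusted p = 0.0518) with siSRSF1-3. LINC01134 was at 891, 1279 and 878 FPKM in the OE-LINC01134 libraries and at 0.497 to 1.11 FPKM in all others. The exact two-sided permutation p of each of these 3 differences from blank cells was 0.1, the smallest that 3 libraries against 3 allow.

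In blank cells the level of the 78 genes ran from 1.19 to 1313 FPKM with a median of 217, and 61 of them had a mean over 100 FPKM. The median was 198 FPKM for the large subunit and 286 FPKM for the small subunit. These are levels per length of the annotated gene, 767 to 9845 bases for these members, which counts every annotated exon and so exceeds the length of the mRNA. Levels therefore do not read directly as mRNA copies.

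The highest levels in blank cells were those of RPS12, at 1269, 1326 and 1344 FPKM, RPL8, which lies near the peptidyl transferase centre, at 1233, 1187 and 1177 FPKM, and RPL41, which encodes the shortest ribosomal protein, at 1149, 979 and 1038 FPKM. They were followed by RPL13A at 977 ± 91.8 FPKM (SD, n = 3) and RPS2 at 843 ± 17.9 FPKM. RPS12, RPL8 and RPL41 did not overlap with each other over the 3 libraries, whereas RPL41 and RPL13A did. At the other end stood RPS10 at 1.33, 1.03 and 1.21 FPKM, RPL36A at 4.52, 2.58 and 2.40, RPL17 at 9.53, 8.53 and 8.68, and RPL26 at 15.7, 13.9 and 13.4. The highest mean was 1103 times the lowest.

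The low values went with an overlap in the annotation. Of the 78 genes, 9 overlapped another protein-coding gene on the same strand, and the 7 lowest genes in blank cells, RPS10, RPL36A, RPL17, RPL26, RPS15A and RPL22 among them, were all among these 9. For RPS10, RPL36A and RPL17 the other gene was a readthrough gene that joins the ribosomal gene to its neighbour, and for RPL26, RPS15A and RPL22 it was an entry without a gene name of its own. RPL36 and RPS13 overlapped ordinary genes and had blank means of 152 and 249.6 FPKM. The readthrough and unnamed genes themselves had means of 0 to 0.0255 FPKM over the libraries. EEF1G, an elongation factor gene that is no member, also overlapped a protein-coding gene on its strand and was itself at a mean of 0.00107 FPKM. How the reads of overlapping genes were counted is not given in the sources used here, and its part in these low levels was not tested.

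**Figure D1:**
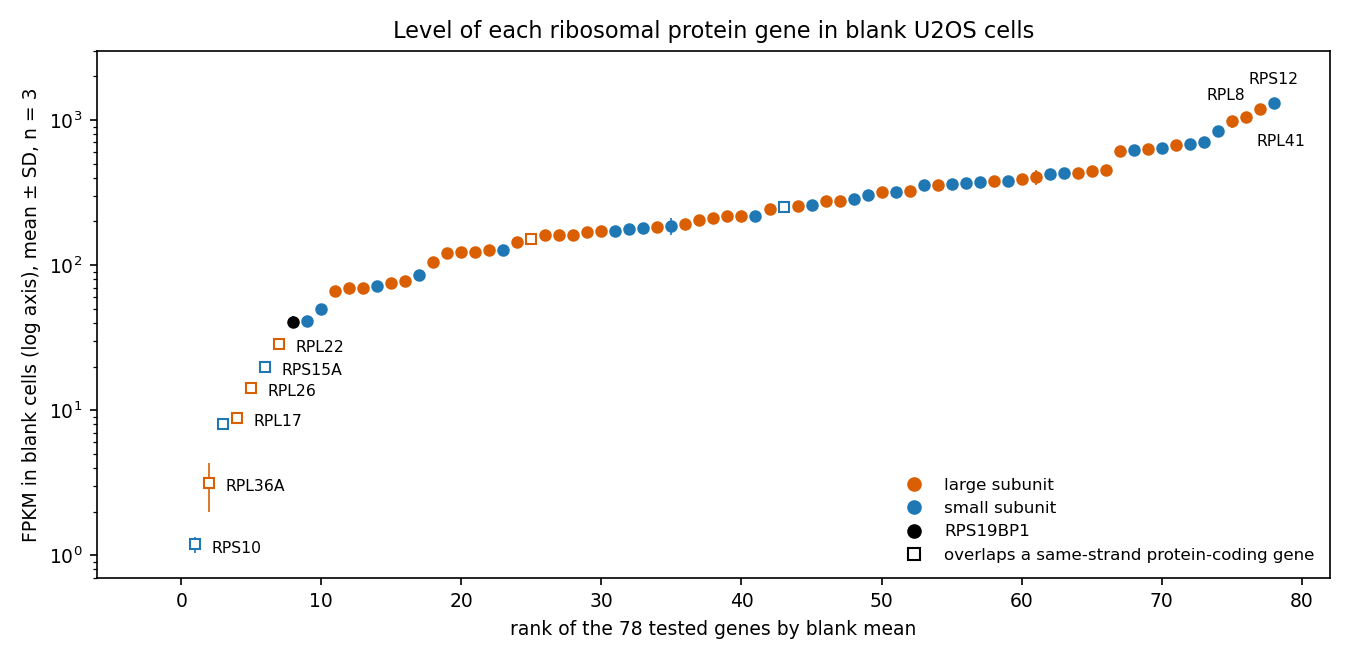
Level of the 78 tested genes in blank U2OS cells, ranked, in FPKM on a log axis (points, means; bars, SD, n = 3). Open squares mark the 9 genes that overlap a protein-coding gene on the same strand, and the 7 lowest points, from RPS10 at 1.19 to RPL22 at 28.6 FPKM, are all open squares.

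The share of reads on genes that fell on the 80 members differed mainly within the siSRSF1-3 group. It was 6.38, 7.09 and 7.10% in the blank libraries, 6.49, 6.18 and 6.31% with siSRSF1-2, and 6.37, 7.57 and 6.29% with OE-LINC01134. With siSRSF1-3 it was 18.7, 13.5 and 7.81%, so that replicate 1 lay far above every other library and replicate 3 was only just above the highest blank library. Reads on ribosomal protein pseudogenes, copies that resemble the mRNAs, made up 1.12, 0.768 and 0.458% of the reads with siSRSF1-3 and 0.341 to 0.423% in the other groups. SRSF1 itself was lowest in siSRSF1-3 replicate 1, at 3.33 FPKM, and was 6.81 and 7.90 FPKM in replicates 2 and 3. The part of the remaining SRSF1, of the library scaling and of shared pseudogene reads in this order was not tested. In bulk RNA of a single cell line, a larger share of cells at a high level and a rise in every cell cannot be told apart.

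The balance of the subunits differed little between groups. The summed FPKM of the large subunit over that of the small subunit was 1.27, 1.27 and 1.28 in blank cells. It was 1.31, 1.29 and 1.28 with siSRSF1-2, where 1 library was level with the highest blank value, and 1.26, 1.25 and 1.25 with OE-LINC01134, below every blank library. With siSRSF1-3 the ratio was 1.16, 1.19 and 1.25, lowest in the library with the largest share of ribosomal protein reads. A sum is dominated by a few abundant genes. The medians over genes hardly separated the subunits, at 1.08 for the large and 1.12 for the small subunit as log2 fold changes of siSRSF1-3 against blank cells.

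**Figure D2:**
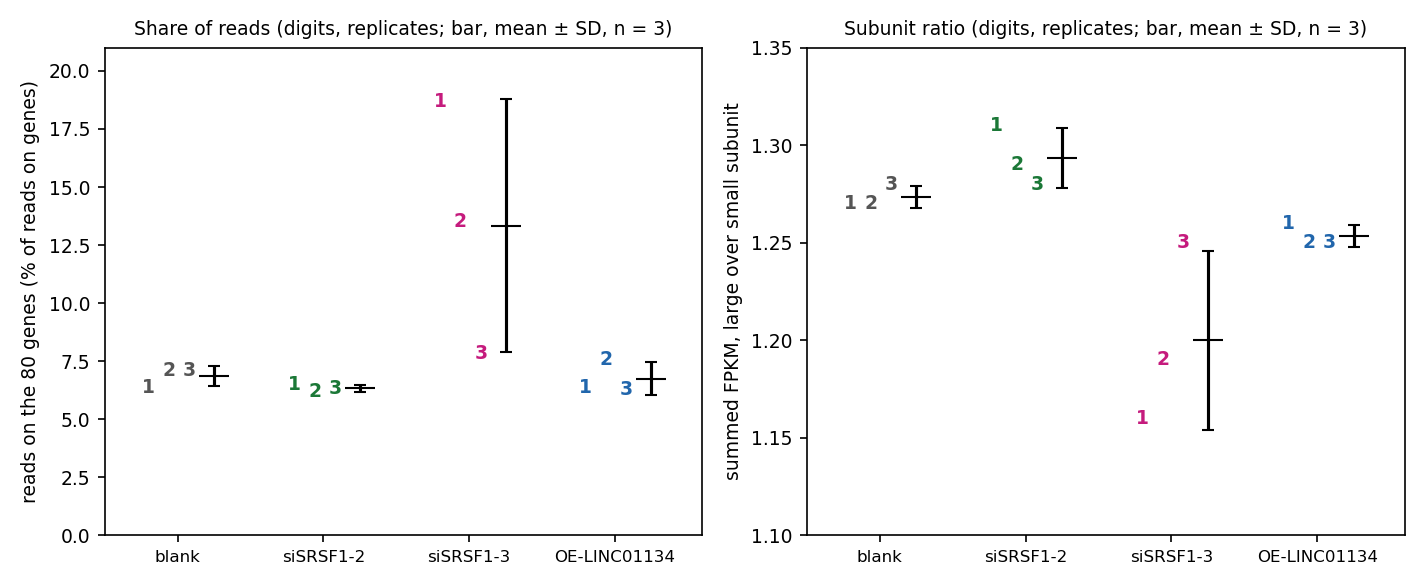
Left, reads on the 80 ribosomal protein genes as a percentage of reads on genes. Right, summed FPKM of the large over the small subunit, on an axis that does not start at 0. Digits are the replicate libraries of each group, with the mean and SD (n = 3) beside them; siSRSF1-3 replicates 1 and 2 stand apart in both panels, at 18.7 and 13.5% and at ratios of 1.16 and 1.19.

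With siSRSF1-3, ribosomal protein genes of both subunits were higher than in blank cells, by a median of 1.11 on the log2 scale, but not one of the 78 passed the test. The median over all 17538 genes tested was -0.01. The log2 fold change was above 0 for 76 of the 78 genes, against 49.3% of all genes tested, and above 1 for 53 of them, against 10.1%. For 59 of the 78 every siSRSF1-3 library lay above every blank library, against 19.2% of all genes tested. The threshold, a Benjamini-Hochberg adjusted p under 0.05 from limma with a log2 fold change over 1 in size, was passed upwards by 0 of 78 (0.331% of all genes) and downwards by 0 (0.929%). At an unadjusted limma p under 0.05, 30 were higher (15.2% of all genes) and 0 were lower (13.6%), and 26 of the 30 also had a log2 fold change over 1 (7.57%).

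The spread between the siSRSF1-3 libraries was large for almost every member. The 78 genes differed from their blank means by a median log2 value of 1.95 in replicate 1, against 1.21 in replicate 2 and only 0.16 in replicate 3. In 71 of the 78 genes the 3 libraries stood in this same order, which 32.9% of all genes tested shared. The median coefficient of variation over the members was 56.6% with siSRSF1-3, against 4.42% in blank cells, 3.28% with siSRSF1-2 and 13.1% with OE-LINC01134. Without siSRSF1-3 replicate 3 the median was 1.57 and 70 genes passed the threshold upwards (12.5% of all genes). Without replicate 1 the median was 0.69 and 0 passed. That fit called only 0.00570% of all genes higher and 0.0684% lower, so its 0 says little about the members. A single limma fit over all 4 groups, in which the tighter groups lower the estimated spread, called 42 (7.10% of all genes higher).

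**Figure D3:**
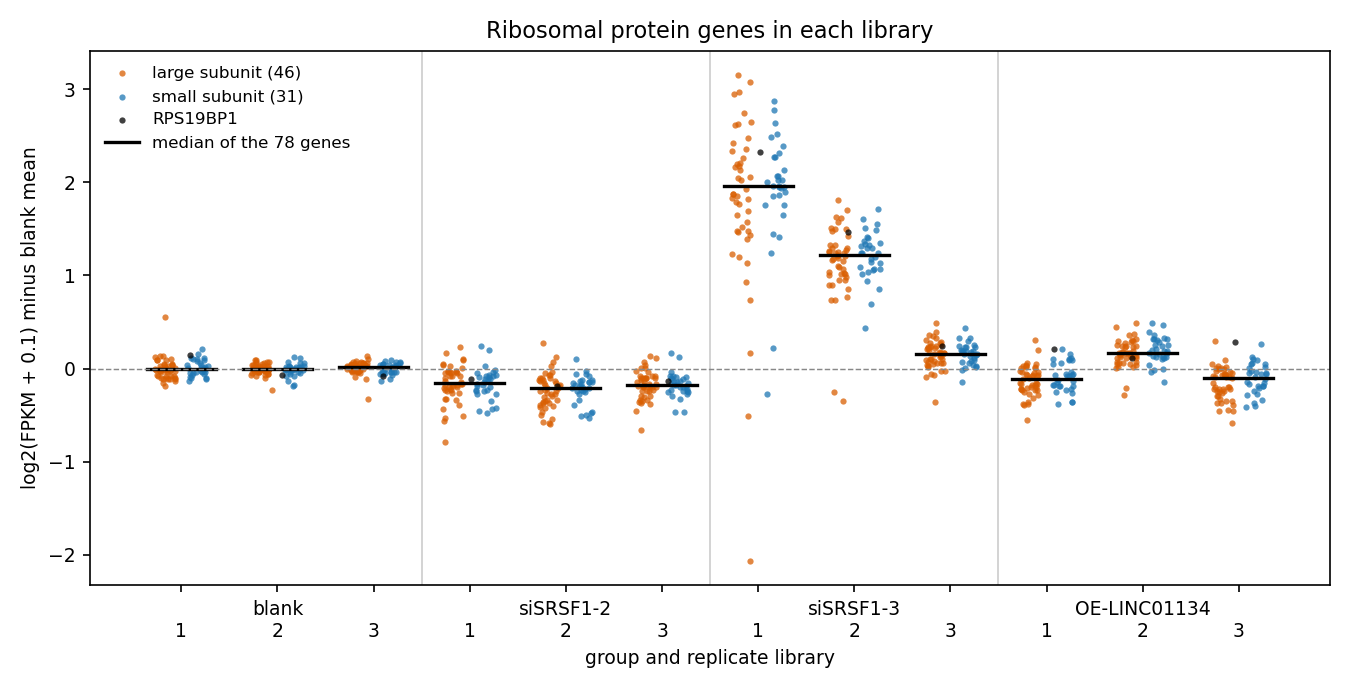
Difference of each of the 78 genes from its blank mean on the log2(FPKM + 0.1) scale, by library and subunit (1 point per gene; line, median). The siSRSF1-3 libraries have medians of 1.95, 1.21 and 0.16, the siSRSF1-2 libraries lie slightly below 0, and the OE-LINC01134 libraries on both sides of 0.

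The 5 highest members with siSRSF1-3 all belonged to the large subunit. RPL28 (ENSG00000108107, chromosome 19, 55385345 to 55403250) was at 69.1, 69.1 and 70.6 FPKM in blank cells and at 431, 244 and 98.0 FPKM with siSRSF1-3. RPLP2 (ENSG00000177600, chromosome 11, 809647 to 812880), an acidic protein of the stalk that recruits translation factors, went from 239, 243 and 244 FPKM to 2152, 748 and 259 FPKM. In both genes all 3 siSRSF1-3 libraries were above blank, RPLP2 by little in replicate 3. The log2 fold change of RPL28 was 1.64 ± 0.509 (standard error; limma adjusted p = 0.109) and that of RPLP2 was 1.63 ± 0.715 (limma adjusted p = 0.182), with RPL13 (1.61), RPL21 (1.61) and RPL9 (1.61) close behind. Standard errors of 0.509 to 0.715 leave these 5 genes indistinguishable in rank.

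Of the members at high level, RPS12 was at 6901, 3865 and 1651 FPKM with siSRSF1-3, a log2 fold change of 1.43 ± 0.610 (limma adjusted p = 0.176). RPL8 was at 4397, 2775 and 1305 FPKM (1.07 ± 0.543). RPL41 was at 3876, 2086 and 1100.4 FPKM, and its replicate 3 lay within the blank range (0.98 ± 0.540). RPS19, a gene mutated in Diamond-Blackfan anaemia, went from 361 FPKM in each blank library to 2245, 1015 and 431 FPKM (1.46 ± 0.590, limma adjusted p = 0.162).

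The other members of known role had log2 fold changes between 0.74 and 1.32 with siSRSF1-3. The stalk genes RPLP0 and RPLP1 had values of 1.15 and 1.32, below that of RPLP2. The MDM2-binding RPL5 and RPL11 had 0.79 and 1.03. RPS6, the target of S6 kinase, had 1.14, RPS14 1.10 and RPS4X 1.06, each with all 3 libraries above blank. RPS3, which lines the mRNA entry channel, had 0.99, RPSA, also known as the laminin receptor precursor, 1.02, RPL3 1.09 and RPL13A 1.07. RPL10, which joins the large subunit late in its assembly, had 0.74, RPL22 1.04 and RPL26 0.82. RPS27A, made as a fusion with ubiquitin, had 0.95. The limma adjusted p of these genes ran from 0.157 (RPL3) to 0.252 (RPS27A).

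A few members did not share the shift. RPL17 was at 2.05, 7.47 and 6.94 FPKM with siSRSF1-3, below each of its blank values, and had a log2 fold change of -0.89 ± 0.473 (limma adjusted p = 0.240). It was the only member with every siSRSF1-3 library below every blank library (18% of all genes tested). RPL36A (2.11, 2.36 and 3.16 FPKM) overlapped with its blank values, with a log2 fold change of -0.27 ± 0.298. Both are among the genes with a same-strand overlap. The 9 genes with such an overlap had a median log2 fold change of 0.82, against 1.12 for the 69 without one, and all 69 were above 0.

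Among genes without an overlap, RPL30, RPL14 and RPS23 showed the smallest differences. RPL30 went from 64.7, 66.9 and 66.5 FPKM in blank cells to 74.0, 123 and 77.0 FPKM with siSRSF1-3. RPS23, a protein of the decoding site, went from 92.2, 83.5 and 82.4 FPKM to 127 ± 33.7 FPKM (SD, n = 3), with replicate 2 at 165 and replicate 3 at 116 FPKM. In both, replicate 2 was the highest library and not replicate 1, unlike most of the members. Their log2 fold changes were 0.43 ± 0.250 and 0.53 ± 0.248, and that of RPL14 was 0.50 ± 0.256 with replicates 1 and 2 both at 129 FPKM and replicate 3, at 78.7 FPKM, inside the blank range.

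**Figure D4:**
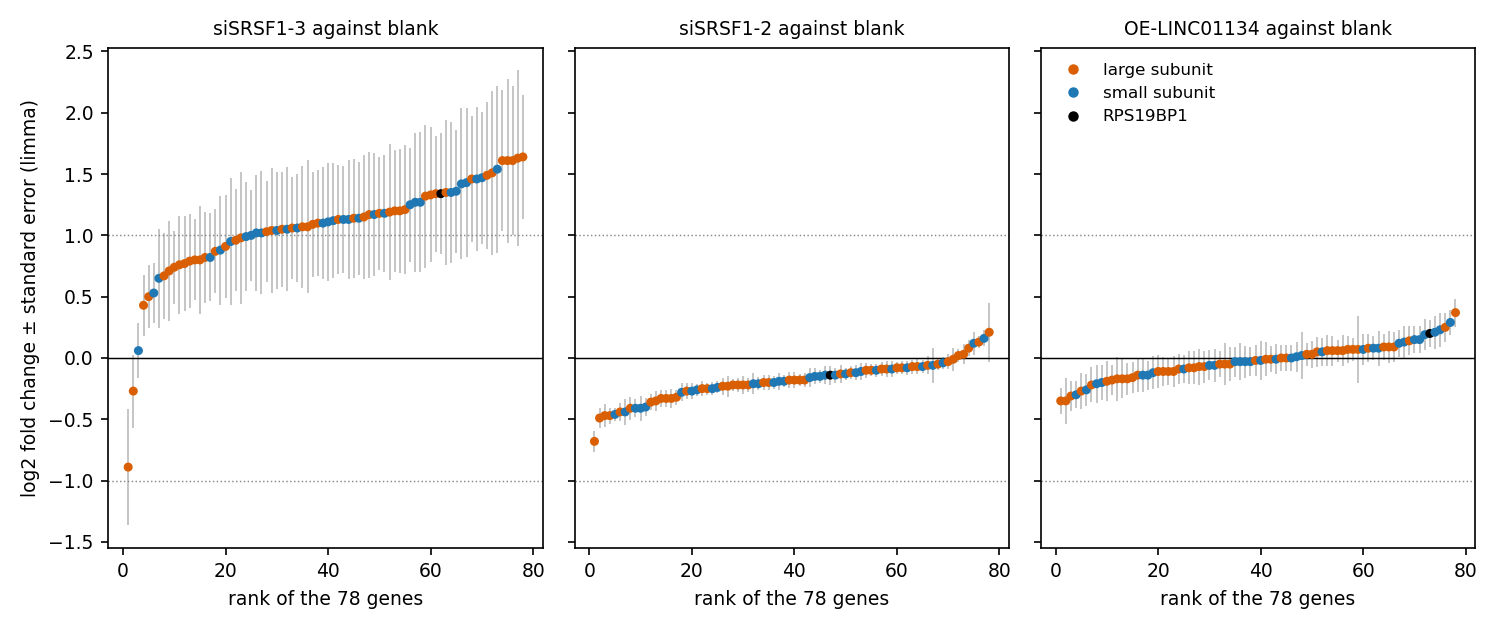
Log2 fold change against blank cells with its standard error (limma) for the 78 genes, ranked within each comparison; dotted lines mark -1 and 1. With siSRSF1-3 the values reach from -0.89 (RPL17) to 1.64 with a median standard error of 0.477, with siSRSF1-2 from -0.68 (RPL17) to 0.21 (0.0630), and with OE-LINC01134 from -0.35 to 0.37 (0.124).

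With siSRSF1-2, most ribosomal protein genes were slightly lower than in blank cells, by a median of 0.18 on the log2 scale (median log2 fold change -0.18, against 0.02 over all genes tested). The log2 fold change was negative for 71 of the 78 genes (48.3% of all genes) and positive for 7 (51.7%). None passed the threshold in either direction (2.22% of all genes higher, 2.73% lower), since the largest difference was -0.68. At a limma adjusted p under 0.05 with no minimum fold change, 33 genes were lower (12.8% of all genes) and 0 were higher (14%). For 55 of the 78 every siSRSF1-2 library lay below every blank library (24.2%), and for 2 above (25.3%). The median was -0.19 for the large subunit, with 20 of 46 genes among the 33, and -0.16 for the small subunit, with 13 of 31.

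Several genes were lower in all 3 siSRSF1-2 libraries, and the values within that group hardly differed. RPS27A (ENSG00000143947, chromosome 2, 55231903 to 55235853) was at 369, 379 and 398 FPKM in blank cells and at 278, 277 and 277 FPKM with siSRSF1-2, a log2 fold change of -0.46 ± 0.0530 (limma adjusted p = 0.00339, the smallest of the members). RPL17 was at 5.10, 5.94 and 5.60 FPKM (-0.68 ± 0.0876, limma adjusted p = 0.00451), below every blank value as it was with siSRSF1-3. RPL38, studied for its part in translating Hox mRNAs, was at 74.3, 70.0 and 81.1 FPKM, against 113, 102 and 102 FPKM in blank cells (-0.49 ± 0.0781, limma adjusted p = 0.00829). RPL26, RPL36, RPL22 and RPS26 had log2 fold changes of -0.47, -0.47, -0.44 and -0.44, each with no overlap between the groups.

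The members above blank with siSRSF1-2 were few. RPS23 was at 98.7, 92.4 and 96.8 FPKM (0.16 ± 0.0656, limma adjusted p = 0.126) and RPL28 at 78.0, 76.1 and 75.2 FPKM (0.13 ± 0.0484, limma adjusted p = 0.0907), both above every blank library. RPL36A (0.21), RPS28 (0.12), RPL13 (0.08), RPL13A (0.03) and RPL10 (0.02) overlapped with blank cells. Of the role genes, RPLP1 (-0.22), RPLP2 (-0.25), RPSA (-0.24), RPS3 (-0.25), RPS14 (-0.20) and RPL41 (-0.33) were lower at a limma adjusted p under 0.05, whereas RPLP0 (-0.05), RPL5 (-0.09), RPL11 (-0.20), RPL3 (-0.01), RPS6 (-0.09), RPS19 (-0.13) and RPS4X (-0.14) were not.

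This comparison rests on small differences and on libraries that were nearly alike. With one limma fit over all 4 groups, 0 members were lower at an adjusted p under 0.05 (2.01% of all genes), and leaving out single libraries gave counts of 4 (5.34% of all genes, without siSRSF1-2 replicate 2) to 50 (24.7%, without blank replicate 1). With the 3 siSRSF1-2 libraries averaged into 1 replicate the median was still -0.18, and that fit called 0 of all 17538 genes, so it says nothing about the members. When each library was rescaled to an equal FPKM total the median was -0.05, where that of all genes was 0.15, and 10 genes were lower (8.93% of all genes) and 2 higher (21.1%) at a limma adjusted p under 0.05.

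With OE-LINC01134, the ribosomal protein genes stayed close to their level in blank cells, with a median log2 fold change of -0.02 (0.05 over all genes tested; 0.07 and 0.14 with equal FPKM totals) and no member past -0.35 or 0.37. The median was -0.05 for the large and -0.01 for the small subunit, with 33 of the 78 above 0 (54.9% of all genes) and 45 below (45.1%). None passed the threshold (0.257% of all genes higher, 0.593% lower), and at an unadjusted limma p under 0.05 there were 2 higher (14%) and 3 lower (12.3%). Every OE-LINC01134 library lay above every blank library in 6 genes (16.8%) and below in 3 (13.8%).

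Replicate 2 differed from the other OE-LINC01134 libraries. Replicates 1 and 3 lay below the blank means by median log2 differences of -0.11 and -0.10, whereas replicate 2 lay above them at 0.17, and replicate 2 was the highest of the 3 in 75 of the 78 genes (41.8% of all genes tested). Replicates 1 and 3 are a nearly identical pair. Without replicate 2 the median was -0.11 and 12 of the 78 genes were lower at a limma adjusted p under 0.05 with no minimum fold change, beside 2104 of all 17538 genes tested.

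A few members lay on the same side of every blank library in all 3 OE-LINC01134 libraries. This held for 7.69% of the members above (16.8% of all genes) and 3.85% below (13.8%), so it was rarer than over all genes. RPL35 (ENSG00000136942, chromosome 9, 124857880 to 124861981) was at 390.2, 350.1 and 330.1 FPKM in blank cells and at 440.4, 501 and 438 FPKM with OE-LINC01134, a log2 fold change of 0.37 ± 0.115 (limma adjusted p = 0.117). RPS23 was at 99.5, 113 and 103 FPKM (0.29 ± 0.102, limma adjusted p = 0.142). RPL35A, which like RPL35 is a large-subunit gene linked to Diamond-Blackfan anaemia, was at 136, 149 and 147 FPKM in blank cells and at 109.9, 125 and 105 FPKM (-0.35 ± 0.107, limma adjusted p = 0.111). RPS27A was at 298, 346 and 289 FPKM (-0.30 ± 0.110, limma adjusted p = 0.153) and RPL17 at 7.77, 7.30 and 6.48 FPKM (-0.31 ± 0.121, limma adjusted p = 0.168). RPL37A was as low as RPL35A, with a log2 fold change of -0.35 ± 0.187, at 82.6, 127 and 80.8 FPKM, and replicate 2 lay at the top of the blank range. RPL28 (0.25) and RPS3A (0.21) also lay near RPL35 and RPS23 at the upper end, and RPL22 (-0.27) and RPS24 (-0.26) were also low.

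**Figure D5:**
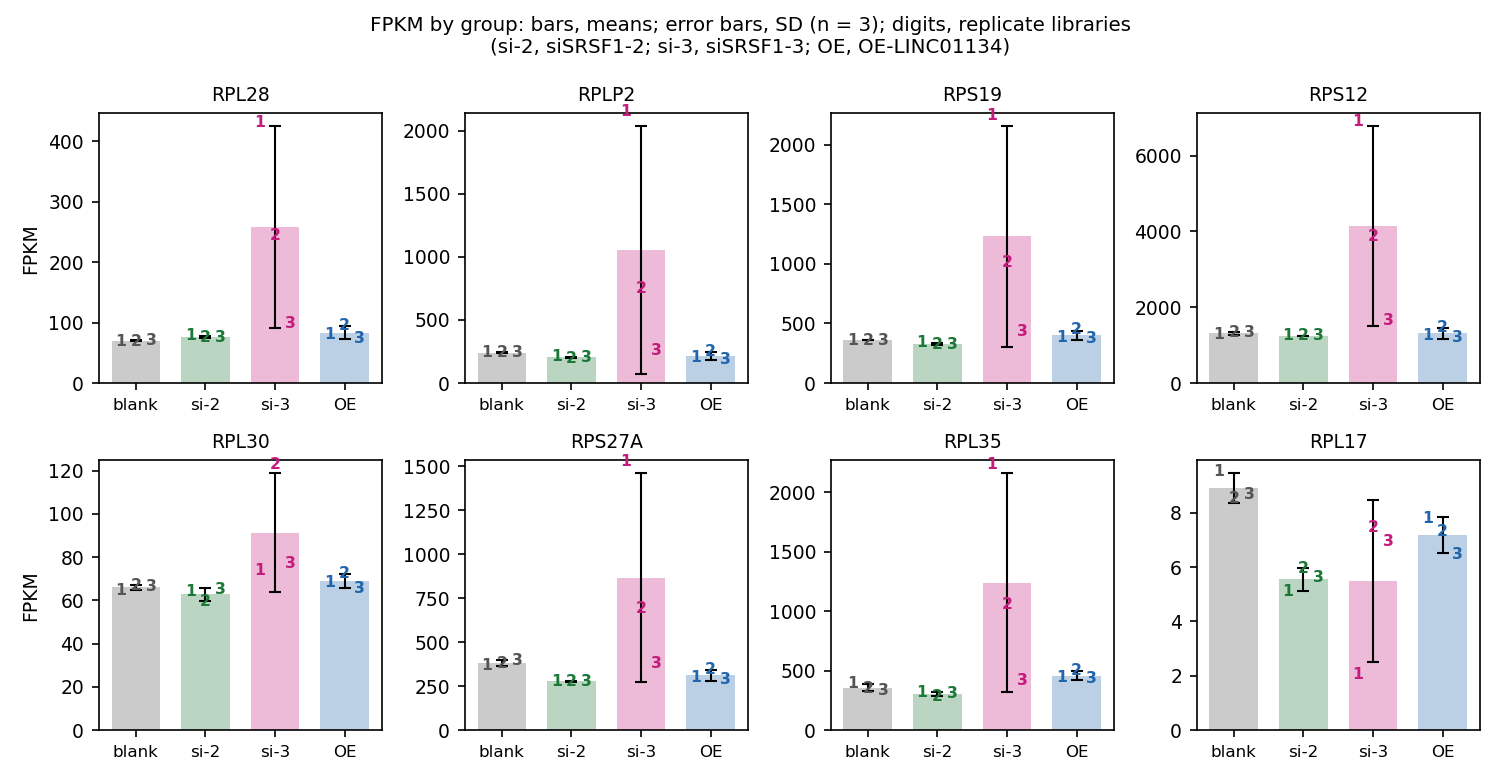
FPKM of 8 ribosomal protein genes by group (bars, means; error bars, SD, n = 3; digits, replicate libraries). In 6 of the 8 genes siSRSF1-3 replicate 1 is the highest library; RPL30 has its highest value, 123 FPKM, in siSRSF1-3 replicate 2, and RPL17 is lowest, 2.05 FPKM, in siSRSF1-3 replicate 1.

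The siRNAs, both directed at SRSF1, were also compared with each other. Ribosomal protein genes were higher with siSRSF1-3 than with siSRSF1-2 by a median log2 fold change of 1.29 (-0.02 over all genes tested), with 1.29 for each subunit and 76 genes above 0 (48.9% of all genes) against 2 below (51.1%). None passed the threshold (0.0342% of all genes higher, 0.0513% lower), and the smallest limma adjusted p was 0.0836 (RPL26). At an unadjusted limma p under 0.05, 66 were higher (21.9% of all genes), 60 of them with a log2 fold change over 1 (9.01%), and for 73 of the 78 every siSRSF1-3 library lay above every siSRSF1-2 library (27%). The highest values were those of RPL36 (1.98 ± 0.688), RPS21 (1.95 ± 0.687), RPLP2 (1.88 ± 0.738), RPL21 (1.86 ± 0.690) and RPS15A (1.83 ± 0.644). RPL36A was lower with siSRSF1-3, in all 3 libraries (-0.48 ± 0.178, limma adjusted p = 0.102; 27.6% of all genes lay below in this way), and RPL17 overlapped (-0.22 ± 0.491). RPS23 (0.37) and RPL30 (0.50) were also at the low end. Without siSRSF1-3 replicate 3, 71 genes passed the threshold upwards (16.0% of all genes). Without siSRSF1-3 replicate 1 the median was 0.89 and 0 passed, in a fit that called only 0.0456% of all genes higher and 0.0741% lower. The comparisons with blank cells share the blank libraries, and their fold changes are therefore not independent.

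Other genes of translation were followed as a list of 21, of which 20 were tested. With siSRSF1-3 these had a median log2 fold change of 0.33, lower than that of the ribosomal protein genes, with 12 genes above 0 and 8 below. Near the top of this list were FAU, a ribosomal subunit gene close to the members at 1.07 ± 0.461, and TPT1 at 1.04. The lowest were EIF3L, a subunit of an initiation factor, at 53.7, 50.6 and 52.7 FPKM in blank cells and 2.71, 28.6 and 50.0 FPKM with siSRSF1-3 (-1.72 ± 0.979), HNRNPA1 (-0.68) and EIF3E (-0.29). EEF1A1, the elongation factor, was at 1546, 1573 and 1667 FPKM in blank cells and at 1648, 1586 and 1396 FPKM with siSRSF1-3, with replicates 1 and 2 inside the blank range. None of the 20 passed the threshold in any of the 4 comparisons, and at an unadjusted limma p under 0.05 with siSRSF1-3 against blank 3 were higher (15.2% of all genes) and 1 was lower (13.6%), shares no larger than over all genes. With siSRSF1-2 the median was -0.11, with 6 genes lower, among them EEF1B2, EIF3E, EIF3H, FAU and HNRNPA1, and 1 higher (EIF3L) at a limma adjusted p under 0.05 with no minimum fold change, beside 12.8% and 14% of all genes. With OE-LINC01134 it was -0.15, where EEF1D was highest (0.46) and EIF3E lowest (-0.60).

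Paralogs left out by the rule were compared as well, 7 of them tested (RPL36AL was added after the table was seen). The median of their log2 fold changes was 1.12 with siSRSF1-3, -0.29 with siSRSF1-2 and 0.07 with OE-LINC01134. RPL22L1, the paralog of RPL22, was at 33.4, 43.3 and 45.5 FPKM in blank cells and at 280.3, 144 and 65.3 FPKM with siSRSF1-3 (1.77 ± 0.503, limma adjusted p = 0.0972). RPL36AL, whose protein is nearly the same as that of RPL36A, was at 268, 216 and 226 FPKM in blank cells, far above RPL36A at 4.52, 2.58 and 2.40 FPKM. RPL7L1 stood apart from the rest, at 0.17 with siSRSF1-3 and 0.30 with siSRSF1-2 (limma adjusted p = 0.0181). The reads of members, paralogs and pseudogenes resemble each other, and the files do not show how shared reads were assigned.

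Introns of ribosomal protein genes often hold small nucleolar RNAs, and 28 of the 78 genes contained at least 1 annotated snoRNA gene on the same strand, 60 in all. The median log2 fold change of these 28 was 1.10 with siSRSF1-3, -0.11 with siSRSF1-2 and 0.02 with OE-LINC01134, beside 1.12, -0.20 and -0.04 for the 50 without one. The 78 genes lay on 21 chromosomes, 12 of them on chromosome 19. The rank correlation between gene length and the difference from the blank mean was between -0.15 and 0.10 over the 78 genes in each of the 9 libraries that were not blank. Over all 17538 genes tested it was -0.17, -0.18 and -0.08 with siSRSF1-3 and -0.01 to 0.06 in the siSRSF1-2 and OE-LINC01134 libraries.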

How the data were processed

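RNA-seq of 12 U2OS libraries in 4 groups of 3 was used. The authors deposited FPKM per gene and library with gene lengths, coordinates and full names; per the supplementary methods, they compared groups with a model of read counts. The aligner, the counting program and a human build are not given in the sources used here. The labels and the methods name different library kits. Reads were recovered as FPKM times gene length times a size inferred for each library from the steps between low values (19605890 to 35466909), and came out whole in 100% of the values, to a tolerance of 0.01. Gene symbols were derived from full names. Each tested member had at least 69 reads in every library, so counting error is largest for the lowest genes.

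Each pair of groups was tested by limma 3.58.1 (R 4.3.3; eBayes with a trend) on log2(FPKM + 0.1). The 17538 genes whose mean over the libraries reached 0.5 FPKM entered, with Benjamini-Hochberg adjustment over all of them. Fold changes are on this scale, which understates changes of low genes. The threshold was an adjusted p under 0.05 with a log2 fold change over 1 in size. SRSF1 and LINC01134 also had exact two-sided permutation tests. The script was tested on simulated data. Figures were drawn with matplotlib 3.10.9.

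The members, lists and tests were chosen with earlier results of these data known. Named were SRSF1, LINC01134, the 5 members with the highest and the 5 with the lowest log2 fold change of each comparison (or level in blank cells), members of the rarer sign where 5 or fewer, members of known role, the 3 highest and 3 lowest of the translation list, and paralogs. Genes added after their values were seen were RPS13, RPS15A and RPL36 (overlaps), RPL36AL, EEF1G, EEF1A1 and the genes of the translation list counted with siSRSF1-2. The same replicate numbers did not pair the libraries. Alternatives were other pseudocounts, filters, scalings and fits, a replicate block, and fits that left out 1 library at a time. Some genes that this rule names are not reported here.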

Additional observations from a re-analysis of the deposited data

Results flagged for a closer look

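On the scale of the deposited values, most ribosomal protein genes lay on opposite sides of the blank cells with the siRNAs, although both target SRSF1. In 59 of the 78 genes, 75.6%, each siSRSF1-3 library lay above the blank mean and each siSRSF1-2 library below it, against 6.78% of all genes tested, and this count itself was not tested. Both differences share the blank libraries, and the side on which a gene lies depends on the scaling. With equal FPKM totals per library, 49 of the 78 genes were lower and 29 higher with siSRSF1-2 than in blank cells. Their median was then -0.05, against 0.15 over all genes tested. The median log2 fold change of the members between the siRNAs, siSRSF1-3 against siSRSF1-2, was 1.29 (0.89 to 1.76 with single libraries left out). Gene by gene, limma found no member past the threshold in that comparison, with 66 higher with siSRSF1-3 at an unadjusted p under 0.05. The median difference from blank was 0.16 in siSRSF1-3 replicate 3, the siSRSF1-3 library nearest to blank cells.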

How the results depend on the processing

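The median of the members kept its sign under every alternative with siSRSF1-3 (0.66 to 1.57 against blank, 0.71 to 1.76 against siSRSF1-2) and with siSRSF1-2. Leaving out single libraries gave medians of 0.69 to 1.57, of -0.19 to -0.17 with siSRSF1-2, of 0.89 to 1.76 between the siRNAs and of -0.11 to 0.03 with OE-LINC01134. With OE-LINC01134 the median was 0.07 with equal FPKM totals per library, with 53 of 78 genes above 0, 0.04 with a trend on gene length removed and -0.08 with voom. That rescaling moved the median of all genes to -0.43 in siSRSF1-3 against blank, scaling to each library's own read total moved it to -0.26, and relative to it the members were at 1.09 and 1.11. With siSRSF1-2 the members' median was -0.14, -0.05 and -0.10 with the own read total, equal totals and the length trend removed. Relative to the median of all genes these values were -0.20, -0.20 and -0.11. Counts of members past the threshold upwards follow for siSRSF1-3 against blank and against siSRSF1-2, in this order. They were 42 and 64 with one fit over all 4 groups (7.10 and 8.39% of all genes). With the unadjusted p they were 26 and 60 (7.57 and 9.01%). Leaving out siSRSF1-3 replicate 3 gave 70 and 71 (12.5 and 16.0%), and leaving out any other library gave 0. Those fits with 0 members called at most 0.00570 and 0.0456% of all genes higher. With siSRSF1-2 against blank, 33 genes passed with no minimum fold change (12.8% of all genes lower). This count was 11 without the filter (4.06% of 42596 genes) and 17 with the own read total (11.7% of all genes). It was 10 with equal totals (8.93%), 20 without a trend (11.7%) and 0 with one fit over all 4 groups (2.01%). Averaging nearly identical libraries, a setting chosen after seeing the data, gave 15 (8.59%). Leaving out blank replicate 1 gave 50 (24.7%) and leaving out siSRSF1-2 replicate 2 gave 4 (5.34%), the extremes for single libraries. Wherever this count fell, the share over all genes fell too, but not always in proportion. With the own read total the count went from 33 to 17 of the 78 genes, and the share over all genes from 12.8 to 11.7%. Treating siSRSF1-2 as 1 replicate left the members' median at -0.18. The same-numbered libraries did not deviate together (correlations of -0.0815 to 0.212, 2 of 18 over 0.1). With a replicate block this count was 9 (7.01% of all genes), and the block left 0 members past the threshold in each comparison. The block left 0 of all genes called in siSRSF1-3 against blank and against siSRSF1-2. With OE-LINC01134 it left 1 gene higher and 3 lower. In these comparisons the 0 therefore says nothing about the members. With siSRSF1-2 against blank, 1.71% of all genes were called higher and 2.17% lower. No named gene reversed its direction while called. With siSRSF1-2 as 1 replicate, SRSF1 itself kept -1.72 at a limma adjusted p of 0.283. Where a setting changed a count, the cause was not tested beyond its own construction. With 3 libraries a group, the spread between siSRSF1-3 libraries limited every test on that group.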
